A study of Caenorhabditis elegans with 10 samples.

Results

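The rows of the deposited count tables that carry the prefix "Pseudogene:" hold the reads assigned to annotated pseudogenes of Caenorhabditis elegans. Of 57827 rows in each table, 1612 carried the prefix, and they stood for 1584 genes. All rows with the prefix were taken, whatever their level, and they were not joined to the genes they derive from. Pseudogenes are copies of genes that have lost the reading frame or were never complete, made by gene duplication, by the decay of a single gene or by reverse transcription of an mRNA. In C. elegans many of them belong to large, fast-changing families such as the chemoreceptors and the F-box proteins, and many lie on the arms of the chromosomes. Some are still transcribed, and a pseudogene label is revised when a reading frame is found to be intact.

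Whole worms of 2 strains were compared, 5 samples of N2, the standard laboratory wild type, and 5 of F01D4.5(baf20), a strain named after the gene F01D4.5. The labels do not say what the baf20 change is. All worms were fed OP50 bacteria and collected 48 h after L1 arrest at 20 °C, with 1000 to 2000 worms pooled per sample, so that each library averages over tissues and animals. In whole worms, fewer cells of a type and less RNA per cell cannot be told apart. Libraries were made from poly(A)-selected RNA with a stranded kit, and the sources used here do not give whether the counting used the strand.

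Library totals ran from 9059910 to 11056979 counts. F01D4.5 itself lay at 6.44 to 14.3 CPM (counts scaled to 1e+06 per library) in N2 and at 2.15 to 4.03 CPM in the F01D4.5(baf20) libraries. Markers of all the tissues checked were present, although unc-15, unc-22, myo-1, rgef-1, pgl-1 and rme-2 stood at 0 in every library. The libraries numbered 5 of both strains stood apart from the other 8, and F01D4.5(baf20) replicates 1 and 2 were the most alike of any pair within a strain (over the pseudogene rows, chi-square divided by its degrees of freedom 1.34, against 2.22 to 20.2 in the other pairs). Values without these libraries stand beside the main comparisons of the strains below.

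Most pseudogene rows had few or no counts at this depth. At least 1 count in at least 1 library was found for 1015 rows (63.0%), and 597 rows (37.0%) stood at 0 in all 10 libraries. A total of 0 allows a mean level of up to 0.0299 CPM, the equivalent of 3 counts over the 10 libraries, a limit that covers counting error only. Marker genes of tissues that were present, such as unc-15 and pgl-1, also stood at 0. Whether a 0 comes from how a row was counted was not tested, and the limit does not cover that. Another 433 rows held 1 to 9 counts in all, 582 held 10 or more, and 449 had a count in every library. For comparison, 90.8% of 19629 protein-coding genes had a count.

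The number of rows detected overlapped between the strains. In N2 the 5 libraries had 645, 625, 656, 667 and 657 rows with a count (650 ± 16.0, SD, n = 5). In F01D4.5(baf20) they had 682, 675, 659, 674 and 653 rows (668.6 ± 12.1, SD, n = 5). The ranges overlap, and with all libraries drawn down to the smallest total the means were 636.5 ± 15.2 and 657 ± 15.9 rows. Replicates 1 and 2 had the most rows of the F01D4.5(baf20) libraries, and without them its means were 662 ± 10.8 rows and, at the smallest total, 645.7 ± 2.55 rows (SD, n = 3). With the library numbered 5 of each strain left out instead, the means were 648.25 ± 17.9 rows in N2 and 672.5 ± 9.68 in F01D4.5(baf20). At the smallest total they were then 635.2 ± 17.2 and 660.4 ± 16.3 rows (SD, n = 4 each). Counts in N2 libraries alone were seen for 98 rows and in F01D4.5(baf20) libraries alone for 121, and none of these rows had more than 6 counts in all. The same shares over all features are not given here, so these numbers are not read as a difference between the strains.

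Which rows had counts varied with the family and the chromosome. Of 288 rows with the symbol of a chemoreceptor, the 7-pass membrane receptors of sensory neurons, 169 had a count but 4 held enough counts to be tested. F-box rows, relatives of the adaptors that bring proteins to ubiquitin ligases, were detected in 38 of 43 cases and tested in 24. All 9 rows of the MATH and BTB family, whose intact members are also adaptors for ubiquitin ligases, had counts, and 6 were tested. Of 16 C-type lectin rows 13 had counts and 4 were tested. Of 209 rows with names of the form used for tRNA genes, with a median exonic length of 73 bases, 41 had a count and 2 were tested, in libraries made for polyadenylated RNA.

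Chromosome V carried 687 of the rows, more than any other chromosome, and 54.3% of them had a count. On the other chromosomes between 65.6% (X) and 76.4% (I) had one. With each chromosome cut into 3 equal stretches, rows in the middle one had a count in 223 of 311 cases, and those in the outer ones in 787 of 1295. These are counts over the annotation and were not tested.

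**Figure D1:**
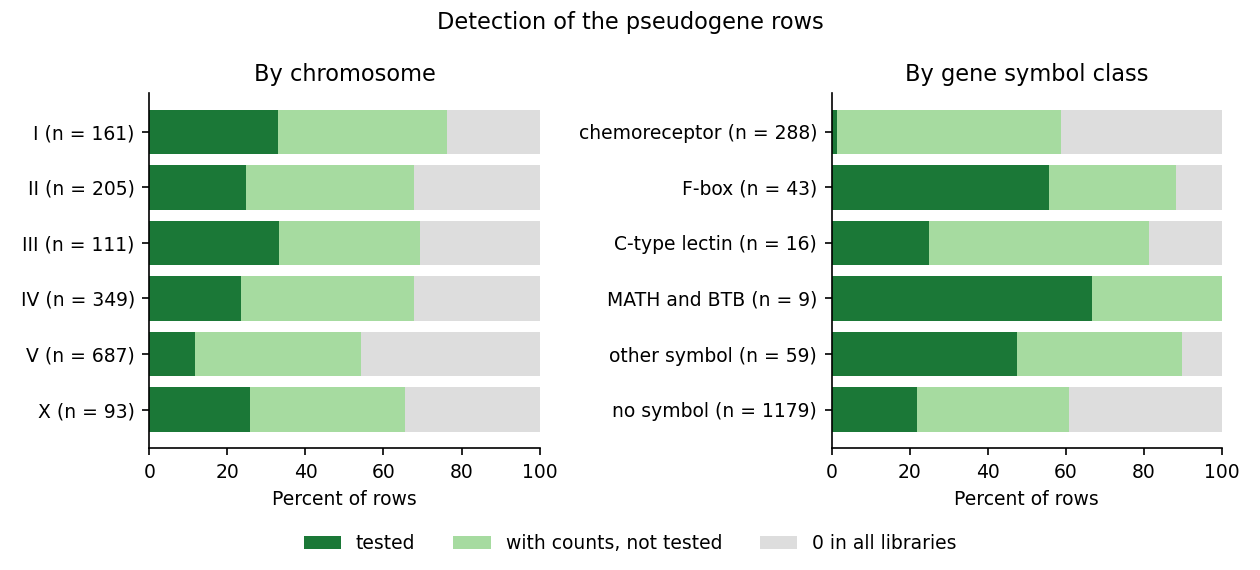
Percent of pseudogene rows that were tested, had counts without being tested, or stood at 0 in all 10 libraries, by chromosome and by class of gene symbol, with the number of rows in each bar. Chromosome V has the lowest share with a count (54.3%), and 4 of 288 chemoreceptor rows reached the test.

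Pseudogene rows held 888258 of 100424124 counts (0.885%), and a handful of them held most of this. The share was 0.805, 0.839, 0.871, 0.827 and 0.934% in the N2 libraries and 1.002, 1.030, 0.837, 0.908 and 0.812% in those of F01D4.5(baf20). The means were 0.855 ± 0.0501% and 0.918 ± 0.0969% (SD, n = 5 each), and the ranges overlap. F01D4.5(baf20) replicates 1 and 2 held the highest shares, and without them the mean of that strain was 0.852 ± 0.0498% (SD, n = 3). With the library numbered 5 of each strain left out instead, the means were 0.836 ± 0.0274% in N2 and 0.944 ± 0.0887% in F01D4.5(baf20) (SD, n = 4 each). The single highest row held 43.8% of all pseudogene counts, and the 10 highest together 64.7%.

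The highest row, F54D7.7, lies on chromosome I at 4790292-4790642 (WBcel235). It has the symbol rpl-41.2, for a protein of the large ribosomal subunit, and Ensembl release 115 lists it as protein-coding. Its level was 3258, 3402, 3609, 3310 and 5194 CPM in N2, and it was 4178, 4208, 3565, 4139 and 4126 CPM in F01D4.5(baf20). N2 replicate 5 was the highest library and the strains overlap. Its neighbour F54D7.6 (rpl-41.1, I:4789190-4789592) is listed as protein-coding too and had a mean of 197 CPM. Reads that fit both of these similar genes could have been split or dropped in counting, so their separate levels are uncertain.

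In all, 22 rows with the prefix belong to genes that the newer annotation lists as protein-coding, 2 as ncRNA and 1 as lincRNA. The 22 rows held 47.2% of the pseudogene counts. Without them the share of counts was 0.454 ± 0.0246% in N2 and 0.482 ± 0.0584% in F01D4.5(baf20) (SD, n = 5 each), or 0.442 ± 0.0267% with replicates 1 and 2 of that strain left out as well (n = 3). In the libraries numbered 5 it was then 0.414% in N2 and 0.411% in F01D4.5(baf20), below the 0.448 to 0.551% of the other 8. With the library numbered 5 of each strain left out, the means were 0.464 ± 0.0116% in N2 and 0.500 ± 0.0496% in F01D4.5(baf20) (SD, n = 4 each).

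Among rows still listed as pseudogenes, ZC513.7 was the highest, with a mean of 606 CPM. It lies on the minus strand of chromosome V at 8039469-8040387, and an exon of algn-12 lies opposite it. Without knowledge of the strand setting, reads of algn-12 cannot be told apart from its own. The level was 620, 655.5, 613, 678 and 465 CPM in N2. It was 647, 633, 679, 620 and 448 CPM in F01D4.5(baf20), lowest in the library numbered 5 of each strain.

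The next rows overlap no other exon in the annotation. T13F2.9 (IV:9768057-9768984, plus strand) had a mean of 236 CPM, B0250.3 (V:20468349-20469413, minus strand) 182 CPM, F07H5.5b (II:8787770-8789716, plus strand) 168 CPM and drh-2 162 CPM. drh-2 (C01B10.1, IV:6613918-6618498) is named for its likeness to the Dicer-related helicases of the RNA interference pathway. C06A1.4 (II:10574842-10578193) followed with 136 CPM, Y102A5C.6 (V:16929167-16930063) with 81.5 CPM and klp-10 (C33H5.4, IV:7797192-7800252), named for its likeness to kinesin motor proteins, with 79.8 CPM.

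Corrected for length the order changes. Per kilobase of exon, F54D7.7 stood at 13925 CPM per kb, ZC513.7 at 938, F54D7.6 at 596, T13F2.9 at 283 and B0250.3 at 233 CPM per kb. The long drh-2 row came to 52.4 CPM per kb and that of klp-10 to 28.8 CPM per kb. A mean of 1 CPM was reached by 335 rows, 10 CPM by 99 and 100 CPM by 8.

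**Figure D2:**
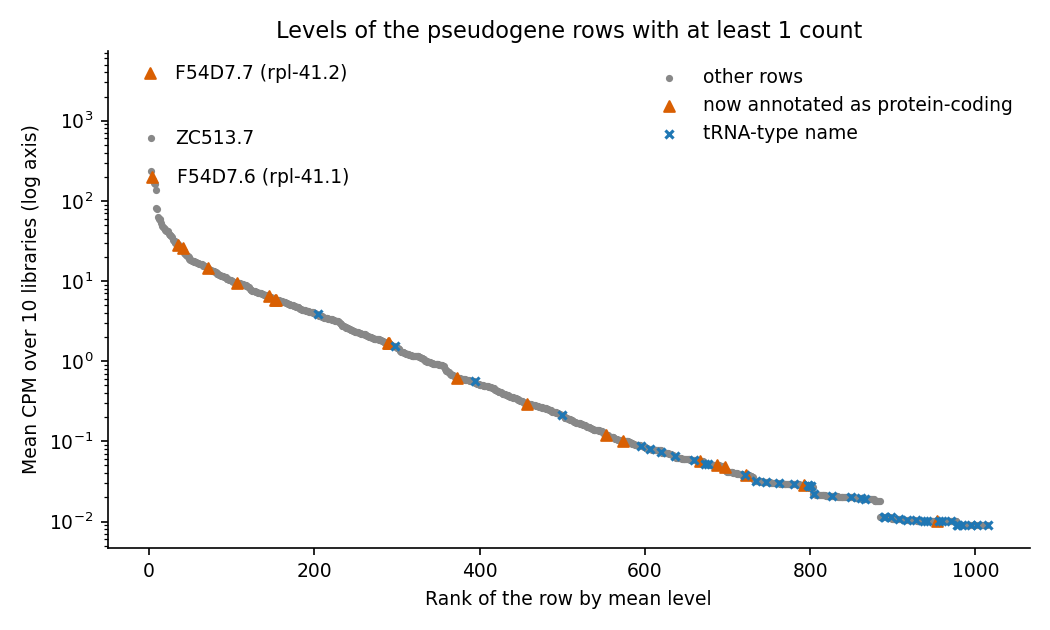
Mean CPM over the 10 libraries (log axis) against rank for the 1015 rows with at least 1 count. Triangles mark rows now annotated as protein-coding, which include the highest row at 3899 CPM, and crosses mark rows with tRNA-type names, which lie mostly at the low end.

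Enough counts for a test were held by 330 rows (20.5%), which carried 98.7% of the pseudogene counts. Their median level was 5.40 CPM per kb, against 14.4 CPM per kb in the 11522 protein-coding genes tested. The lengths are not fully alike. A pseudogene row was given the exons of its own transcript where one matched, and a coding gene the merged exons of all its isoforms. The counts are not fully alike either, since those of a coding gene are summed over its rows and a pseudogene row stands alone. The median coefficient of variation over the 10 libraries was 24.9%. The 24 tested F-box rows ran from 1.18 to 27.2 CPM, with fbxa-193 (F59A1.9) at the top, and the 6 MATH and BTB rows from 1.92 to 11.9 CPM. fbxa-193 and the next 3 rows are outside the rule for named rows and were picked after their values were seen. cyp-31A1 (C01F6.3), of the cytochrome P450 family of oxidising enzymes, had 37.1 CPM. nhr-144 (F59E11.12), of the nuclear hormone receptors, had 20.3 CPM, and srd-14 (B0547.3), the highest of the 4 tested chemoreceptor rows, had 9.24 CPM.

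The strains differed in 1 of the 330 tested rows. In edgeR's quasi-likelihood test, with p adjusted over all 12335 features by the Benjamini-Hochberg method, 8 features passed an adjusted p of 0.05, which is 0.0649% of those tested (0.0324% in the lower direction). Y17D7C.3 is the pseudogene row among them (V:18720589-18723771, minus strand, 798 exonic bases, no overlapping gene). Its level was 14.25, 16.64, 15.22, 16.45 and 16.82 CPM in N2, against 9.11, 8.22, 8.06, 9.61 and 9.27 CPM in F01D4.5(baf20). The lowest N2 library lay above the highest F01D4.5(baf20) library. The row fell by 0.84 on the log2 scale (SE 0.114, adjusted p = 0.0254).

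The size of this difference was steady and its call was not. Over 20 alternatives the log2 fold change of Y17D7C.3 lay between −0.90 and −0.81 and its adjusted p between 6.66e-07 and 0.434. With any single library left out other than F01D4.5(baf20) replicate 5, the adjusted p rose to between 0.0631 and 0.122, so the call was lost in 9 of 10 cases. With F01D4.5(baf20) replicates 1 and 2 both left out it was 0.434, and with both libraries numbered 5 left out 0.0394. In that last fit 2 pseudogene rows passed, Y17D7C.3 and F57G4.4, where 0.146% of all features did.

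Another 7 rows had strains that did not overlap, 5 higher and 2 lower in F01D4.5(baf20), and none of them passed the adjusted threshold. With Y17D7C.3 these are 8 of 330 tested rows (2.42%), where 1.44% of all features did not overlap. fbxa-191 (F57G4.4, V:17637982-17640042) had 7.81, 5.27, 6.80, 6.36 and 5.81 CPM in N2, against 15.35, 15.1, 11.6, 13.2 and 7.91 CPM in F01D4.5(baf20), where replicate 5 lay next to the N2 libraries. This row differed by 0.98 ± 0.197 (SE) on the log2 scale, with edgeR's adjusted p at 0.219. M162.12 (V:19768261-19770690) had 2.81, 2.69, 2.48, 2.36 and 2.18 CPM in N2, against 7.16, 3.91, 6.85, 8.08 and 3.62 CPM in F01D4.5(baf20). The 5 F01D4.5(baf20) libraries were thus all higher but spread over a wider range, and differed from N2 by 1.24 ± 0.251 (SE) on the log2 scale, again with edgeR's adjusted p at 0.219. DESeq2 put both under the threshold, fbxa-191 with an adjusted p of 0.00605 and M162.12 with 0.0133, and called 3 pseudogene rows where it called 0.268% of all features. With F01D4.5(baf20) replicates 1 and 2 left out, the log2 fold change of fbxa-191 was 0.77 and that of M162.12 1.31, with adjusted p of 1.000 and 0.920 in edgeR.

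The remaining rows without overlap were low. On the log2 scale the differences of Y67D8C.23, F44F1.1 and H16D19.5 were 1.01, 0.69 and 0.66, and those of C40H5.8 and F17C8.8 were −1.07 and −0.59. C40H5.8, the row with the lowest level among them, had 1.14 to 1.82 CPM in N2, against 0.449 to 0.904 CPM in F01D4.5(baf20). It passed the filter on low counts through the N2 libraries only. Its lack of overlap and its fold change are therefore no independent support for a difference. C29A12.2 (log2 fold change 1.05) and bath-18 (F40B1.2, 0.84), of the MATH and BTB family, were among the 8 smallest p-values, and their strains overlap.

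**Figure D3:**
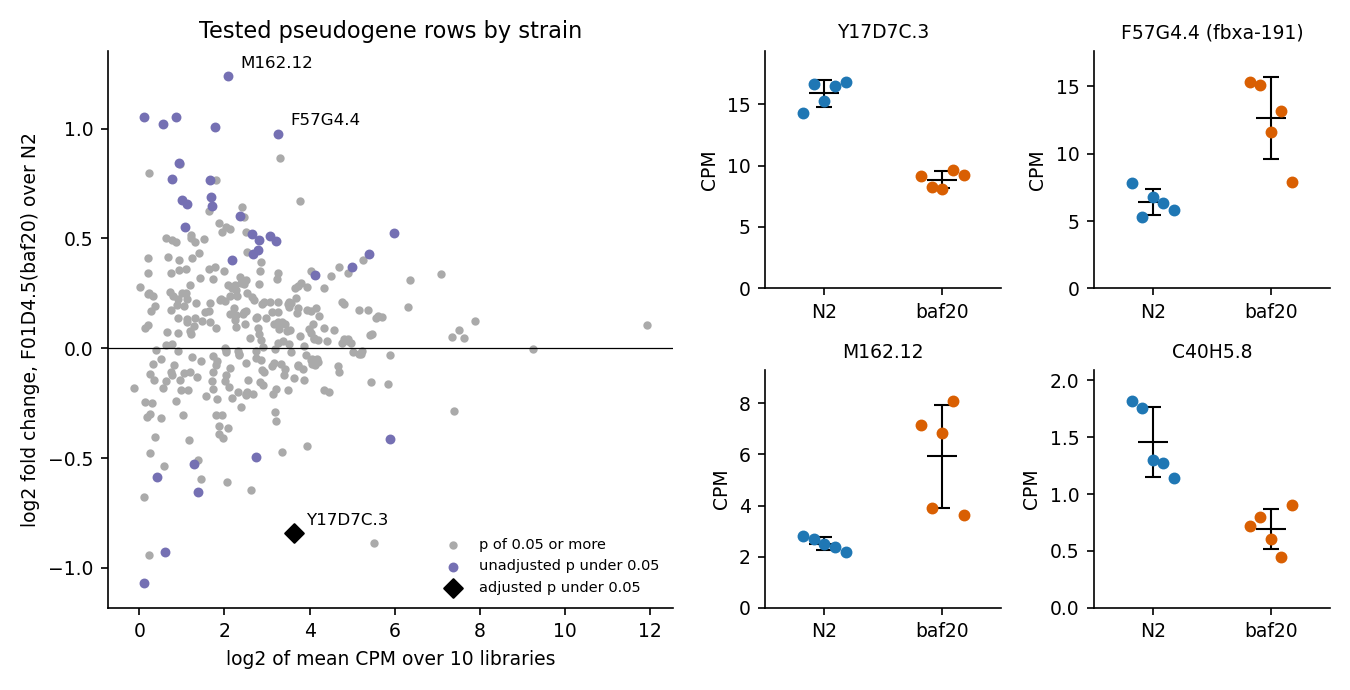
Left, log2 fold change of F01D4.5(baf20) over N2 against log2 of the mean CPM for the 330 tested rows, with rows under an unadjusted p of 0.05 in purple and the row past the adjusted threshold as a diamond. Right, CPM of 4 rows in each library (points) with the mean and SD (bars, n = 5); the 2 strains of Y17D7C.3 are separated by a gap between 9.61 and 14.25 CPM.

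As a group the tested rows leaned towards higher values in F01D4.5(baf20). The lean in sign was not seen without replicates 1 and 2 of that strain. The share of rows under an unadjusted p of 0.05 stayed above that of all features in each fit below. The log2 fold change was positive in 205 of 330 rows (62.1%, median 0.10), where 53.2% of all features were positive (median 0.02). At an unadjusted p under 0.05 there were 34 rows (10.3%), 26 higher and 8 lower, against 5.75% of all features, 3.51% higher and 2.24% lower. With F01D4.5(baf20) replicates 1 and 2 left out, 157 of 354 rows (44.4%, median −0.04) were positive, against 52.1% of all features, and 23 rows had an unadjusted p under 0.05 (6.50%, against 3.21% of all features). Of these 12 were higher and 11 lower, against 1.24% and 1.97% of all features. With these replicates summed into 1 library, 56.8% of 345 rows were positive (median 0.05), against 52.2% of all features, and 28 had an unadjusted p under 0.05 (8.12%, against 3.66%), 18 higher and 10 lower (1.95% and 1.71% of all features). Without both libraries numbered 5, 66.5% of 334 rows were positive, against 52.6%, and 56 had an unadjusted p under 0.05 (16.8%, against 15.4%), 45 higher and 11 lower (7.29% and 8.14% of all features).

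In classes of rows, 19 of the 24 tested F-box rows had a positive log2 fold change (median 0.12), and 3 of them were higher with an unadjusted p under 0.05 (fbxa-191 and, named after their values were seen, fbxa-121 and fbxa-123), where 3.51% of all features were. In 10 of the 24 rows F01D4.5(baf20) replicates 1 and 2 lay above all other 8 libraries. Without this pair 9 of 24 F-box rows were positive (median −0.06) and 1 was higher with an unadjusted p under 0.05, against 1.24% of all features. On chromosome V 56 of 80 rows were positive, or 44 of 87 without the pair, and on the X chromosome 9 of 24, or 9 of 25 without it. With both libraries numbered 5 left out instead, 18 of 23 F-box rows were positive, where 52.6% of all features were. On chromosome V 60 of 81 rows were then positive, and on the X chromosome 13 of 25. In the main fit the 11 tested rows now listed as protein-coding had 7 positive and 4 negative values and none with an unadjusted p under 0.05.

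F01D4.5(baf20) replicates 1 and 2 lay above all other 8 libraries in 77 of the 330 rows (23.3%), where they did so in 12.1% of all features. They lay below the other 8 in 10 rows (3.03%), against 8.95% of all features. This count describes a pair picked out in the data and carries no test. The 3 rows in which the pair exceeded the other 8 by the largest factor, chosen after their values were seen, are fbxa-33, Y41D4B.18 and F35E12.4. fbxa-33 (ZC47.9, III:1279627-1281725) had 27.5 and 24.5 CPM in this pair, 2.42, 2.69 and 7.01 CPM in the other F01D4.5(baf20) libraries and 2.90 to 10.4 CPM in N2. F35E12.4 (V:13731506-13733387) had 29.0 and 29.3 CPM in the pair and 5.63 to 16.5 CPM elsewhere. Y41D4B.18 (IV:1558053-1559633), which shares exon sequence on the same strand with C34H4.1, had 13.1 and 11.5 CPM in the pair and 1.53 to 5.27 CPM elsewhere. The other 3 libraries of the strain lay within or below the N2 range in all 3 rows.

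More rows passed the test for replicate number than that for strain. The labels give the numbers 1 to 5 in each strain without saying what they stand for. An edgeR quasi-likelihood test of the 4 replicate-number terms, with strain in the fit, passed the adjusted threshold in 8 of 330 rows (2.42%). Of all features 8.88% passed, so the share among pseudogene rows was below the background. The count changed when single libraries were left out, as given in the last section. Each number has 1 library per strain, so such a fit leaves that number with 1 library. A loss of calls there cannot be told from the loss of replication. The pseudogene rows had a median log2 CPM of 2.48 and all features one of 4.04, and the part of this difference in level was not tested. Without both libraries numbered 5, 0 of all features passed, and 202 features, among them 1 pseudogene row, had an unadjusted p under 0.05.

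In the 8 rows the libraries numbered 5 stood apart from the rest, in 7 higher and in klp-10 lower. Of the 1095 features called among all, 1024 were higher and 71 lower in the libraries numbered 5, and the split among the pseudogene rows is read against that one. Without F01D4.5(baf20) replicate 5, number 5 rests on its N2 library. The log2 differences from numbers 1 to 4 were then 1.66 for T09E11.11, 1.14 for Y17D7B.7, 1.56 for F22B8.4, −0.93 for klp-10 and 1.00 for R10E8.7. They were 1.66 for C39H7.2, 1.09 for fbxa-180 and 0.53 for F07H5.5b. The losses of calls given next carry the same limit as the count above. With each library left out in turn, the call was lost in 1 or 2 of 10 cases for T09E11.11, Y17D7B.7, F22B8.4, klp-10 and R10E8.7, but in 7 for C39H7.2, 8 for fbxa-180 and 9 for F07H5.5b. T09E11.11 (I:12344167-12345702) had 22.1 and 19.7 CPM in the libraries numbered 5 of N2 and F01D4.5(baf20), and 4.71 to 8.64 CPM in the other 8 libraries. The difference of number 5 from the mean of numbers 1 to 4 was 1.76 on the log2 scale (adjusted p for replicate number = 0.00340 by edgeR). F22B8.4 (V:16086572-16088217) had 15.6 and 14.6 CPM in the libraries numbered 5 and 1.60 to 6.73 CPM in the others, a log2 difference of 2.14 (adjusted p = 0.00801 by edgeR). C39H7.2 (IV:5611090-5612090), with an exon of C39H7.70 on the opposite strand, had 7.16 and 7.12 CPM against 0.301 to 2.81 CPM, the largest log2 difference of the 8 at 2.32 (adjusted p = 0.0467 by edgeR).

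Y17D7B.7 lies at V:18780490-18782605, on the same chromosome as Y17D7C.3. It had 29.4 and 34.1 CPM in the libraries numbered 5 and 11.6 to 16.3 CPM in the others, a log2 difference of 1.17. R10E8.7 (V:18231635-18237223), with R10E8.3 on the opposite strand, had 39.0 and 46.9 CPM against 10.1 to 22.3 CPM, a difference of 1.42. fbxa-180 (F31E9.1, V:17319596-17322444) had 23.2 and 21.9 CPM against 7.90 to 16.1 CPM, a difference of 0.98. klp-10 was the row that went the other way, with 42.9 and 53.2 CPM in the libraries numbered 5 and 68.4 to 99.9 CPM in the others, a log2 difference of −0.87 (adjusted p = 0.0116 by edgeR).

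The eighth row, F07H5.5b, had 244 and 220 CPM in the libraries numbered 5 and 124 to 191 CPM in the others, a log2 difference of 0.62 (adjusted p = 0.0377 by edgeR, 0.0546 with DESeq2's size factors in edgeR). Further rows at this place on chromosome II, chosen after their values were seen, were highest in the same libraries. F07H5.4 (II:8786457-8787119) had 91.1 and 80.5 CPM against 42.8 to 58.3 CPM, F07H5.3a (II:8784535-8785513) had 41.4 and 41.1 CPM against 20.8 to 29.6 CPM, and F07H5.5a, an isoform of the same gene as F07H5.5b, had 73.9 and 79.8 CPM against 32.0 to 56.7 CPM. Levels of rows of 1 gene depend on how reads that fit several isoforms were counted, which is not given. The F07H5 rows also lie next to each other, so they are not independent observations.

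**Figure D4:**
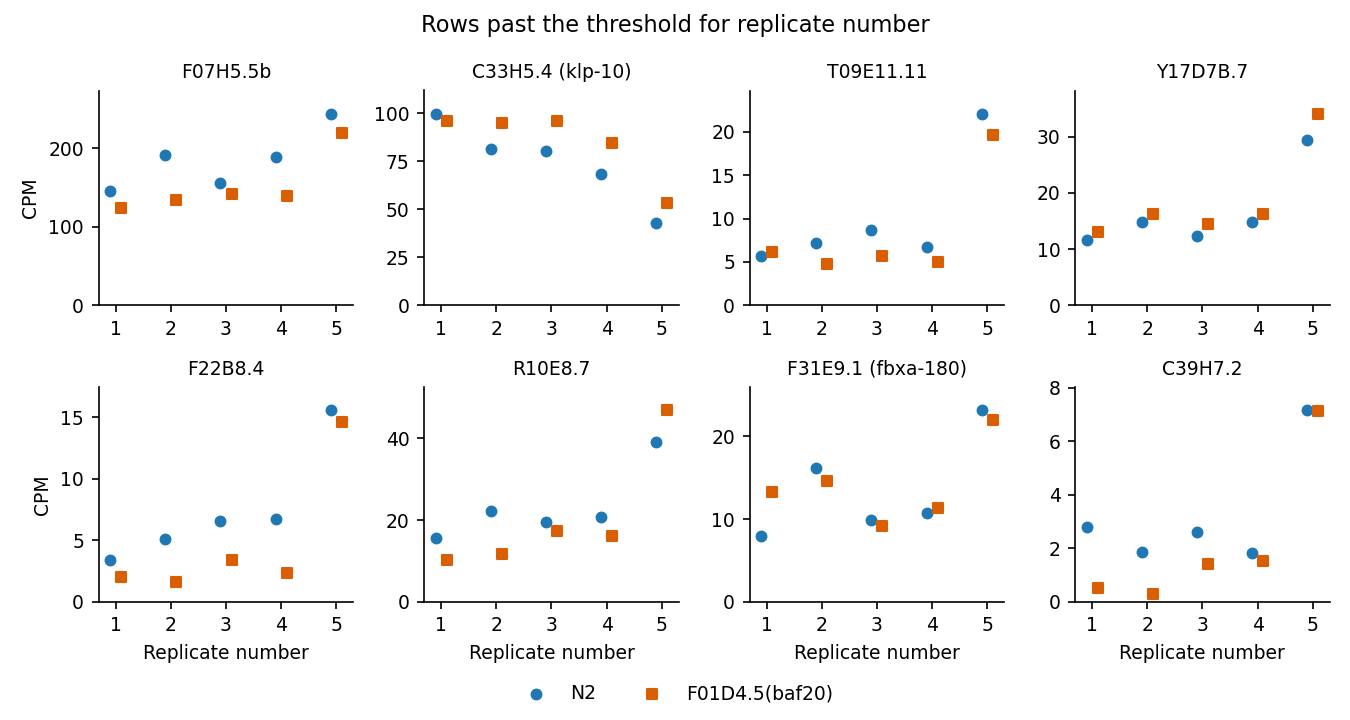
CPM of the 8 rows past the threshold for replicate number, by replicate number, with N2 as circles and F01D4.5(baf20) as squares. In 7 panels both libraries numbered 5 are the highest of the 10, and in that of klp-10 they are the lowest, at 42.9 and 53.2 CPM.

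Across all tested rows the libraries numbered 5 leaned downwards. The difference from numbers 1 to 4 was negative in 213 of 330 rows (median −0.19 on the log2 scale), while the median over all features was −0.03 and 48.2% were positive. Both libraries numbered 5 lay outside the range of the other 8 in 101 rows (30.6%), against 42.4% of all features. They were above it in 35 rows (10.6%, against 23.2%) and below it in 66 (20%, against 19.2%). Beyond 2-fold there were 19 higher rows (5.76%, against 12.9%) and 4 lower ones (1.21%, against 1.54%).

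Marker lists moved with the same libraries, and their part in these results was not tested. Of 6 furrow collagens, made by the epidermis around each moult, 5 were higher in both libraries numbered 5 than in all others, with dpy-10 at 0 throughout. Their summed level was 175 CPM in the N2 library and 60.2 CPM in the other, against 8.39 to 33.1 CPM. Of 4 moulting genes 3 were higher in both, with mlt-11 at 0, summing to 191 and 82.5 CPM against 12.3 to 57.2 CPM. Of 4 oocyte genes 3 were lower in both, with rme-2 at 0, summing to 907 and 1099 CPM against 1576 to 2379 CPM. Of 4 germline genes 3 were lower in both, with pgl-1 at 0, summing to 1030 and 1336 CPM against 1565 to 1832 CPM. Of 4 intestine genes 3 were higher in both, summing to 2387 and 2873 CPM against 1820 to 2413 CPM. Of 4 epidermis genes 3 were higher and 1 lower in both, summing to 4020 and 3421 CPM against 3904 to 5381 CPM. This list is not separate from the earlier ones, since dpy-7 is also a furrow collagen and mlt-10 also a moulting gene. Among the neuron genes 1 was higher in both, and no gene of body wall muscle, pharynx or sperm was higher or lower in both.

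The row with the widest spread at a high level was a pseudogene of ribosomal RNA, named after its values were seen. F31C3.10 (rrn-3.56, I:15060299-15061150, with F31C3.16 opposite) had 15.6, 26.9, 53.9, 164 and 35.1 CPM in N2, and its level was 30.3, 25.5, 22.4, 20.9 and 60.9 CPM in F01D4.5(baf20). N2 replicate 4 was far above the other libraries, and the strains overlap. The share of all counts taken by the 22 rRNA genes was 0.310, 0.506, 1.03, 2.81 and 0.710% in N2 and 0.628, 0.547, 0.375, 0.391 and 1.01% in F01D4.5(baf20), highest in the same N2 library. Its part in the level of the row was not tested.

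**Figure D5:**
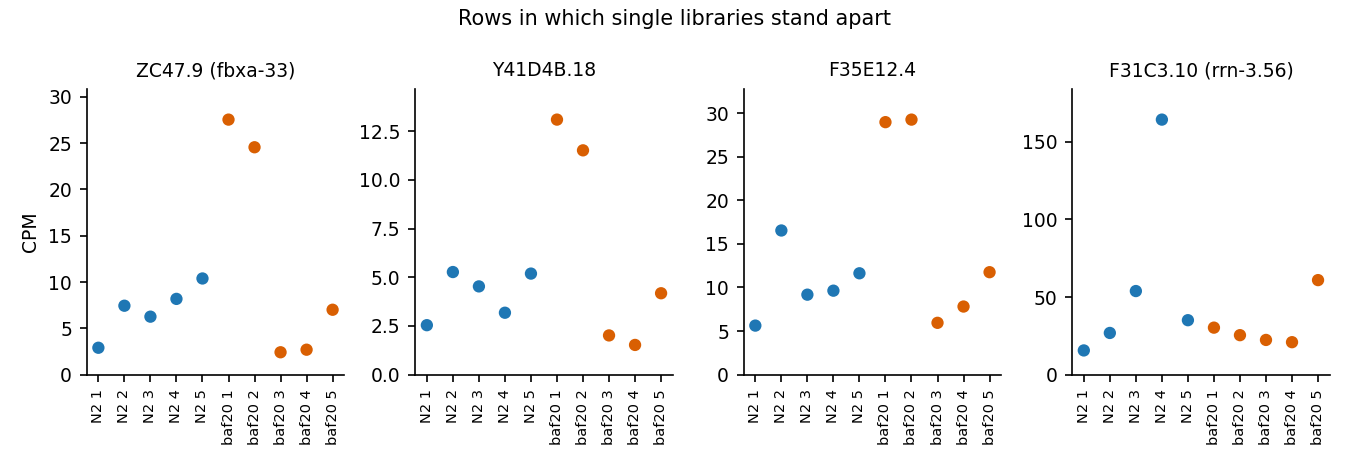
CPM per library of 4 rows chosen after their values were seen, N2 in blue and F01D4.5(baf20) in orange. F01D4.5(baf20) replicates 1 and 2 stand above the other 8 libraries in the first 3 panels, and N2 replicate 4 reaches 164 CPM in the panel of rrn-3.56.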

How the data were processed

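The authors deposited 1 table of raw counts per library, as whole numbers per annotated row. Per the submitters' processing notes, CASAVA, HISAT2, HTSeq and DESeq2 were used, with the builds ce10 and ce11. Versions, annotation release, strand setting and the treatment of reads that fit several places are not given in the sources used here, and the last of these bears on pseudogenes, which resemble other genes. Coordinates, biotypes and overlaps come from Ensembl release 115 on WBcel235, matched by name (1606 of 1612 rows), and symbols from the RefSeq table of that assembly. Another 563 rows of genes that Ensembl calls pseudogenes carry no prefix and were not used as members.

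Each row with the prefix was kept as a feature, and the other rows were summed per gene (46792 features). In edgeR 4.0.16 (R 4.3.3), features were kept by filterByExpr (minimum count 10, minimum total count 15), libraries scaled by TMM, and strains compared with a two-sided robust quasi-likelihood test with strain as the only term. p was adjusted over 12335 features, with a threshold of 0.05. Replicate number was tested by adding its 4 terms. The standard error is the log2 fold change over the root of F. The procedure was tested on simulated data. Intervals and floors cover counting error only, and 3 counts equal 0.269 to 0.339 CPM per library. Samples are biological replicates per the series' design text, with no statement on separate cultures, so p-values measure the spread between these samples.

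Rows named are those past a threshold, the 10 highest, the 8 smallest p for strain and for replicate number, the 3 largest differences of number 5 per direction among called rows, and up to 5 non-overlapping rows per direction with the largest fold changes. Other rows were named after their values were seen, as stated where they appear. The members and lists were chosen with earlier results of these data known. Further marker lists were in the tables as well. Those of body wall muscle (381 to 639 CPM summed), pharynx (42.4 to 236), intestine (1820 to 2873), epidermis (3421 to 5381), neurons (230 to 288) and sperm (193 to 300) gave these ranges over the libraries. Alternatives included DESeq2 1.42.0, edgeR with DESeq2's size factors or with upper-quartile scaling, other filters, rows as deposited, a replicate block and removal of each library. Added after seeing the data were removal of both libraries numbered 5 in the strain comparison, the sum and the removal of F01D4.5(baf20) replicates 1 and 2 (the removal also for classes of rows, detection and shares), and the share without rows now listed as protein-coding.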

Additional observations from a re-analysis of the deposited data

Results flagged for a closer look

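In 18 of 70 groups of 5 libraries (25.7%), 1 library lay farther from the others than Dixon's criterion allows, where chance gives about 1 in 20. The excess is not evidence, since the choice of rows fixed most of it: 12 of the 18 come from the 8 rows called for replicate number and 3 from rows chosen after their values were seen, and the other named rows gave 3 in 36 groups. In 16 of these the library is one numbered 5. F54D7.7 (rpl-41.2) had 5194 CPM in N2 replicate 5, and 3565 CPM in F01D4.5(baf20) replicate 3, its lowest library. ZC513.7 had 448 CPM, F07H5.5b 220 CPM, F07H5.3a 41.1 CPM and klp-10 (C33H5.4) 53.2 CPM in F01D4.5(baf20) replicate 5. T09E11.11 had 22.1 and 19.7 CPM, Y17D7B.7 29.4 and 34.1 CPM, F22B8.4 15.6 and 14.6 CPM, R10E8.7 39.0 and 46.9 CPM and C39H7.2 7.16 and 7.12 CPM in replicate 5 of N2 and of F01D4.5(baf20). F31C3.10 (rrn-3.56) had 164 CPM in N2 replicate 4 and 60.9 CPM in F01D4.5(baf20) replicate 5.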

How the results depend on the processing

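The count of pseudogene rows that differed between strains was 1 and became 3 with DESeq2, 2 without both libraries numbered 5, and 0 with no filter on low counts, with F01D4.5(baf20) replicates 1 and 2 summed or with both left out. It was 0 to 2 with single libraries left out. With the replicate number as a block it was 0, and Y17D7C.3 had an adjusted p of 0.072 in edgeR. The deviations of same-numbered libraries had correlations of 0.15, 0.15, 0.002, −0.13 and 0.82 over all features, for numbers 1 to 5. Over the pseudogene rows these were −0.07, 0.05, −0.06, 0.002 and 0.61. Only the libraries numbered 5 moved together, so the numbers as a whole were not taken to pair samples. The 10 rows named by the rule for the strain comparison kept their direction under the alternatives run, while other rows named were not followed through them. The count of rows that differed with replicate number was 8 and became 14 with DESeq2, 19 with no filter, 0 without both libraries numbered 5, and 0 to 19 with single libraries left out. It was 0 without F01D4.5(baf20) replicate 5, 2 without N2 replicate 5, 19 without F01D4.5(baf20) replicate 1, and 5 without replicate 4 of either strain. Each number has 1 library per strain, so a fit without 1 library leaves its number with 1. A loss of calls there cannot be told from the loss of replication. For the fits with DESeq2, with no filter and without 1 library, the share over all features is not given here. These changes in count are thus not read as particular to pseudogene rows, and their cause was not tested. Of 1015 rows with a count, 626 had at least 3 counts in a library and 582 at least 10 in all, and the mean per library of 659.3 rows became 474 with at least 3 counts. The mean share of counts of 0.887% became 0.376% without the 5 highest rows, 0.756% without rows that overlap another gene, and 0.468% without rows now listed as protein-coding. Depth limits rows under about 1 CPM, most of which could not be tested.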
